A study of Mus musculus with 2 samples.

Results

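Hox genes encode the homeodomain transcription factors that lie in 4 chromosomal clusters, Hoxa to Hoxd, and are numbered by paralogue group from 1 at the 3′ end of a cluster to 13 at its 5′ end. In the embryo low-numbered genes are switched on first and reach furthest towards the head, whereas high-numbered genes stay in the hind part of the body, so the set of Hox genes a tissue expresses works as an address along the body axis. In the gut that address is laid down mainly in the mesoderm around the tube and, more weakly, in the epithelium, and part of it is kept in the adult. The members here were all probes, other than controls, whose gene name in the array files is Hoxa, Hoxb, Hoxc or Hoxd followed by a number. They came to 44 probes for 39 genes, out of 55681 probes and 23858 named genes on the arrays.

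RNA was measured on 2 one-colour Agilent arrays of epithelial cells from intestinal segments of wild-type male mice. One array held segments incubated for 2 h in 0.5 µM cholic acid, which the liver makes as a primary bile acid, and the other held segments kept for 2 h in a vehicle of 0.05% DMSO and 0.25% ethanol. Both titles begin with the letters S_I, and the labels used here do not give the position of the segments along the gut, the number or age of the mice, or the solvent used with cholic acid. With 1 array per treatment no difference below has a replicate check, no p-value was computed, and the treatment cannot be told apart from the segment, the animal or the array. Of 8 epithelial markers, among them Epcam, Vil1 and Krt20, 8 were detected on both arrays.

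Most Hox genes were too dim to be compared between the arrays. A probe is called detected here where Agilent's Feature Extraction software flagged its spot as well above background. With cholic acid 3 of 39 Hox genes had a detected probe, against 57.1% of all named genes. With vehicle it was also 3 of 39, against 56.4% of all named genes. They were Hoxa7, Hoxa9 and Hoxb6 on both arrays, each at the same probe, a condition that 53.9% of all named genes met. The other 36 were detected on neither array.

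Signals are given as the processed intensity of a spot with the error that Feature Extraction attaches to it, since each of these 3 genes was read from 1 spot per array. Hoxa7, a homeodomain factor of the trunk, had a signal of 30.1 ± 4.16 on the cholic acid array and 33.0 ± 4.51 on the vehicle array. The probe lies at chr6:52165626-52165685 on the minus strand of mm9. Hoxa9, known for its part in blood progenitors and in the hind trunk, had a signal of 17.1 ± 3.31 with cholic acid and 19.4 ± 3.62 with vehicle, from the probe at chr6:52174165-52174224. These neighbours in the Hoxa cluster were both slightly dimmer on the cholic acid array before any scaling, by less than their errors. A second Hoxa9 probe was not detected, at 5.0 with cholic acid and 4.13 with vehicle. Hoxb6, a central paralogue, had a signal of 21.0 ± 3.74 on the cholic acid array and 17.3 ± 3.78 on the vehicle array, from the plus-strand probe at chr11:96162563-96162622. It was the only one of the 3 that was brighter with cholic acid before scaling. All of these signals are near the low end of what the arrays flag: the lowest signal of any detected probe was 11.2 on the cholic acid array and 14.6 on the vehicle array.

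After scaling of each array to the 75th percentile of the probes detected on both, the 3 genes had positive differences, all below 2-fold. The log2 difference, cholic acid minus vehicle, was 0.38 for Hoxa7, with an error of 0.28 from the spot errors. It was 0.33 for Hoxa9, with an error of 0.39, and 0.80 for Hoxb6 (1.74-fold), with an error of 0.41. Dim genes as a whole lay above 0 on this scale. The 1000 genes nearest to Hoxa7 in signal had a median difference of 0.36 and a robust SD of 0.56. Those nearest to Hoxa9 and to Hoxb6 had a median of 0.38 and an SD of 0.46. Hoxa7 and Hoxa9 were therefore within 0.05 of genes of like signal, and Hoxb6 was above its own by less than that SD. For comparison, of the 12859 genes detected at the same probe on both arrays, called measured from here on, 6.57% were higher with cholic acid by 2-fold or more and 2.05% were lower by as much, and their median difference was 0.08. Without scaling, the differences were -0.13 for Hoxa7, -0.18 for Hoxa9 and 0.28 for Hoxb6. The sign of Hoxa9 was also negative with quantile normalization (-0.12), loess (-0.08) and the authors' processed values (-0.11), and that of Hoxa7 was 0.00 in the authors' values. Hoxb6 was positive in all settings tried, and was the only one of the 3 at least 1.5-fold higher in the main setting, as were 17.8% of all measured genes.

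**Figure D1:**
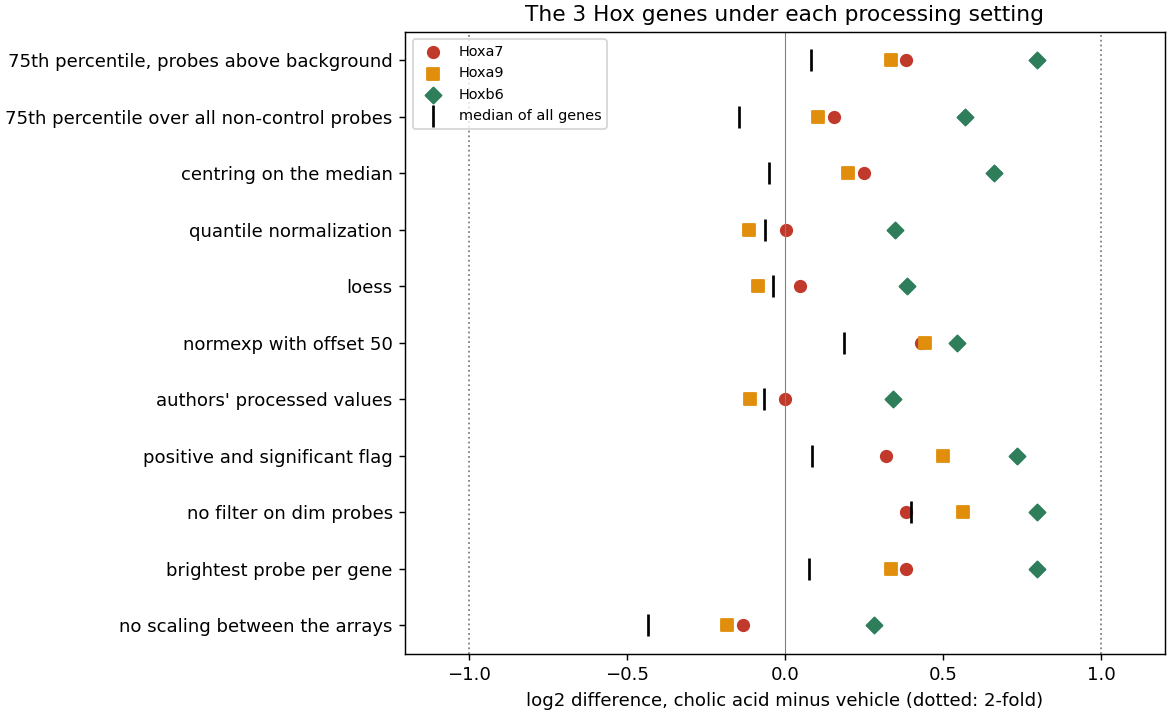
Log2 difference, cholic acid minus vehicle, of Hoxa7, Hoxa9 and Hoxb6 under the main setting (top row) and each alternative, with a black tick at the median over all genes for that setting. No point reaches 2-fold (dotted lines); Hoxb6 stays between 0.28 and 0.80, whereas Hoxa7 and Hoxa9 lie on either side of 0.

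Among the 36 Hox genes without the flag, the brightest probe of a gene had signals of 2.75 to 13.2 on the cholic acid array (median 3.60) and of 2.93 to 16.5 on the vehicle array (median 3.535). The 308 negative control spots, which match no transcript, had a median of 3.10 with cholic acid and 3.33 with vehicle. Values at this level are often not measurements. Of the 42 Hox probes with a single spot, Feature Extraction had put a surrogate value in place of the signal for 20 on the cholic acid array, for 25 on the vehicle array and for 16 on both. For those 16 the log2 ratio of the surrogates had a median of -0.10 before scaling and 0.41 after it, so a probe with no signal on either array takes a positive difference from the scaling alone.

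A looser flag, positive and significant against the local background, was set for 20 Hox genes on the cholic acid array and 17 on the vehicle array, of which 13 were shared. Over all named genes the same flag was set for 76.5% on the cholic acid array and 73.7% on the vehicle array, and for 2.27% (cholic acid) and 3.25% (vehicle) of the negative control spots. It was set on both arrays for 69.0% of all named genes. The 95th percentile of the negative controls was passed by 20 Hox genes with cholic acid, against 75.9% of all named genes, and by 16 with vehicle, against 73.0%. Genes with the looser flag on the cholic acid array alone were Hoxa2, Hoxb2, Hoxb5, Hoxb7, Hoxc4, Hoxc10 and Hoxd10. Genes with it on the vehicle array alone included Hoxa11, Hoxc12 and Hoxd3. These genes range over low and high paralogue numbers in both sets. Hoxc4 had a signal of 11.3 ± 2.99 with cholic acid and a surrogate of 2.95 ± 2.98 with vehicle. Hoxd3 had a surrogate of 3.73 ± 3.74 with cholic acid and a signal of 15.6 ± 4.30 with vehicle. With the looser flag 12 Hox genes could be compared at the same probe, and 4 of them were at least 2-fold higher and 0 lower, beside 10.4% higher and 3.3% lower of all genes so measured. With no filter 9 of 39 were at least 2-fold higher and 1 lower, beside 12.3% higher and 2.63% lower of all genes. The 4 genes higher with the looser flag were Hoxa4, Hoxa13, Hoxc5 and Hoxd4. The errors of their log2 differences, from the spot errors, ran from 1.255 to 1.339. Hoxc4 and Hoxd3 had a surrogate on 1 array, so they count only where no filter was used. All of these were read from single spots, and none of these values carried the stricter flag. Hoxa11, the paralogue needed for the forelimb and uterus, shows how far single spots spread at this level, because its probe was printed 10 times. The spots ran from 2.94 to 6.26 on the cholic acid array and from 3.18 to 17.3 on the vehicle array, with geometric means of 3.75 with cholic acid and 5.43 with vehicle. Hoxb1, a hindbrain gene, was also printed 10 times; the 6 spots left on the cholic acid array after removal of outliers ran from 3.10 to 3.55, and the 7 left on the vehicle array from 3.27 to 3.85.

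By paralogue group, the stricter flag was set on both arrays for 0 of 8 genes of groups 1 to 3, for 2 of 15 of groups 4 to 8 (Hoxa7 and Hoxb6) and for 1 of 16 of groups 9 to 13 (Hoxa9). The looser flag was set for 4 of 8 genes of groups 1 to 3 on each array. In groups 4 to 8 it was set for 11 of 15 with cholic acid and 8 of 15 with vehicle, and in groups 9 to 13 for 5 of 16 on each. Over all named genes the looser flag was set for 76.5% with cholic acid and 73.7% with vehicle, so 11 of 15 was near the share of the whole array. By cluster, the stricter flag fell on 2 of 11 Hoxa genes, 1 of 10 Hoxb genes, 0 of 9 Hoxc genes and 0 of 9 Hoxd genes, on both arrays alike. Over all named genes the stricter flag was set for 57.1% with cholic acid and 56.4% with vehicle. Of the genes that mark the hind end of the gut in the embryo, Hoxd12 and Hoxd13 had surrogates on both arrays. So did Hoxb13, a gene of the distal colon and prostate. Hoxa13 had 11.4 ± 3.28 with cholic acid and 3.98 ± 3.33 with vehicle at the brighter of its 2 probes. That probe had the looser flag on both arrays and the stricter flag on neither. Across the 39 genes the difference, taken without any filter, had a Spearman rho of -0.13 with paralogue number. That value describes these 2 arrays only, and 36 of its 39 points are genes detected on neither array.

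Promoters of the 2 detected neighbours are shown because Cdx1 and Cdx2, homeodomain factors of the intestinal epithelium that act on Hox genes in the embryo, were detected on both arrays. They come from RefSeq (GRCm38.p6), run from 250 bases before to 50 after the start of the gene on the gene's strand, and carry capitals where the letters TTTATG, a form of the motif bound by caudal-type factors, occur on either strand.
Hoxa7, chr6:52218524-52218823, minus strand: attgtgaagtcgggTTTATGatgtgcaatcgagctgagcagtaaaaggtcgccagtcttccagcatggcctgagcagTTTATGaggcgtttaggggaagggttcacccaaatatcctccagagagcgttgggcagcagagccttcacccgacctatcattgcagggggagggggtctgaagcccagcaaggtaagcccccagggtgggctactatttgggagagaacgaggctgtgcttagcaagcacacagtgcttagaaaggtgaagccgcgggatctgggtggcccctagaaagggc
Hoxa9, chr6:52227321-52227620, minus strand: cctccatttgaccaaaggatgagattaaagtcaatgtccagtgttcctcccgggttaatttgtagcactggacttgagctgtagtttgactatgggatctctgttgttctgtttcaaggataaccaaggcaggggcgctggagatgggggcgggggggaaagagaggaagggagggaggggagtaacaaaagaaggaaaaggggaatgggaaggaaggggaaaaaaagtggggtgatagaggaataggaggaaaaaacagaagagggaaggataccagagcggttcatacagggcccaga
The motif occurred 2 times for Hoxa7 and 0 times for Hoxa9. It was present in 5 of the 24 Hox promoters of the table, which cover 22 of the 39 genes, and in 11.85% of all 32851 promoters of that length. Its presence is a description of the letters and not of binding. Hoxb6, the other detected gene, had no promoter among the 24.

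The regulators and partners of Hox proteins were measured at a rate near the 53.9% of all named genes. In the list of regulators of axial position, 5 of 10 genes were measured on both arrays, with 0 at least 2-fold apart and a median difference of 0.23, beside 0.08 for all genes. Cdx1 had a signal of 2020 with cholic acid and 2290 with vehicle (log2 difference 0.34), and Cdx2 had 4720 with cholic acid and 5750 with vehicle (0.23). Rara, a retinoic acid receptor, had 560.8 with cholic acid and 1082 with vehicle (-0.43), while Rarg had 50.6 with cholic acid and 44.6 with vehicle (0.70). Rxra, a partner of these receptors, had a difference of -0.32, but its 2 probes disagreed in sign. Cdx4, Rarb, the retinoic acid hydroxylase gene Cyp26a1 and Gdf11, a signal that sets hind Hox domains in the embryo, were not detected on either array. Of the TALE class of cofactors, which bind DNA beside Hox proteins, 5 of 9 were measured on both arrays, 0 of them 2-fold apart, with a median difference of 0.28. Pbx2 had 336 with cholic acid and 390 with vehicle (0.30), and Meis3 had 117 with cholic acid and 138.2 with vehicle (0.28). Pbx3 had 18.8 with cholic acid and 45.4 with vehicle (-0.76), which made it the member of the list with the largest difference. Meis1, Meis2, Pbx4 and Pknox2 were not detected on either array.

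Polycomb proteins, which keep silent Hox clusters closed, and trithorax proteins, which keep active ones open, were nearly all detected. Of 15 Polycomb genes 13 were measured on both arrays, with 0 at least 2-fold apart and a median of 0.07. The members furthest apart were Cbx7, which reads the Polycomb mark, at 27.6 with cholic acid and 25.8 with vehicle (0.61), and Phc1, at 19.8 with cholic acid and 42.2 with vehicle (-0.58). Pcgf2 (0.41) and Jarid2 (0.40) came next. Cbx2 and Cbx8 were detected on the vehicle array alone, with signals of 14.3 (Cbx2) and 14.8 (Cbx8) on the cholic acid array and of 30.6 (Cbx2) and 36.7 (Cbx8) on the vehicle array. Their cholic acid signals were above the lowest detected there, so the scaled ratio is given and not a bound. It was 1.496-fold (Cbx2) and 1.733-fold (Cbx8) lower with cholic acid, from signals that did not carry the flag on that array. Of 8 trithorax and H3K27 demethylase genes 7 were measured, 0 of them 2-fold apart, with a median of -0.08. The exception was Kmt2a, which was not detected on either array. Kdm6b, a demethylase of the Polycomb mark, had the largest difference of that list, at 918 with cholic acid and 1880 with vehicle (-0.52). Men1 (0.31), Ash2l (-0.15) and Wdr5 (-0.10), parts of the methyltransferase complexes, followed.

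Several markers of gut position were more than 2-fold apart between the arrays. Over all measured genes 6.57% were at least 2-fold higher with cholic acid and 2.05% at least 2-fold lower. Of the distal small intestine list, 10 of 11 were measured, 3 of them at least 2-fold higher and 0 at least 2-fold lower, with a median of 0.39. Fabp6, an ileal bile acid-binding protein, had a signal of 1320 with cholic acid and 47.3 with vehicle, and Slc10a2, the ileal bile acid importer, had 265.7 with cholic acid and 79.4 with vehicle. Gcg, the glucagon-like peptide gene, was the third and lay only just past the 2-fold limit. Fgf15, the distal member that was not measured, was not detected on either array. Cubn, an ileal receptor for vitamin B12 uptake, lay the other way, at 572.6 with cholic acid and 1573 with vehicle (-0.94), and Osr2, a transcription factor, was also negative (-0.43). Of the proximal list, 11 of 13 were measured, with 1 (S100g) at least 2-fold higher and 3 (Slc46a1, Onecut2 and Apoa4) at least 2-fold lower, and a median of -0.12. Gata4, the factor that separates jejunum from ileum, had 893 with cholic acid and 1390 with vehicle (-0.12). Pdx1, a ParaHox gene of the duodenum and pancreas, was not detected on either array. In the colon list Car1 had 37.6 with cholic acid and 42.3 with vehicle (0.35), and Retnlb was detected with cholic acid alone, at 997 against 3.15 with vehicle, or at least 97.7-fold higher. None of 8 stomach genes was measured on both arrays, and Muc5ac was detected on the cholic acid array alone, at 19.9 against 13.4 with vehicle. The question of whether both segments came from the same gut position thus had 3 measured Hox genes to go by, all under 2-fold apart, beside position markers that were apart in both directions. Bile acid genes among those markers can also respond to cholic acid, which cannot be told apart from position here.

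**Figure D2:**
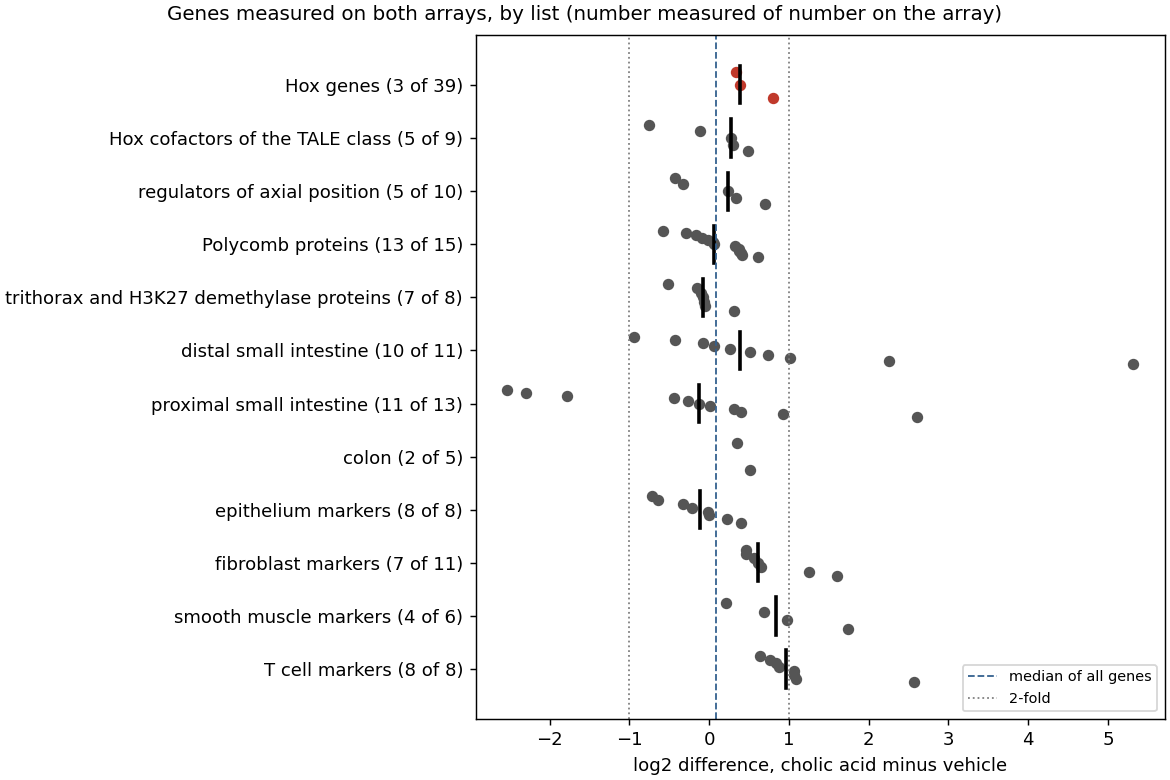
Log2 difference, cholic acid minus vehicle, of each gene measured on both arrays, by list, with the list's median as a black bar where 3 or more genes were measured. The 3 Hox genes (red) lie between 0.33 and 0.80, inside the 2-fold lines, whereas the distal list runs from -0.94 to 5.32 and the proximal list from -2.53 to 2.61.

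Markers of fibroblasts, smooth muscle and T cells also had positive differences, as did 57.4% of all measured genes. That share is not a comparison at like signal. Some of the fibroblast and smooth muscle markers were about as dim as the 3 Hox genes, and genes of that signal had median differences of 0.36 to 0.38. The 7 of 11 fibroblast markers that were measured were all positive (median 0.61), with a summed signal of 1106 with cholic acid and 826 with vehicle; Dcn and Vim were at least 2-fold higher, while Lum, Dpt, Pdgfra and Foxf2 were not detected on either array. Before scaling, Col1a1 (54.1 with cholic acid, 56.2 with vehicle) and Col3a1 (127 with cholic acid, 132 with vehicle) were dimmer with cholic acid. Foxf1, a factor of the gut mesoderm, had 61.8 with cholic acid and 57.8 with vehicle (0.61). Smooth muscle markers were measured for 4 of 6, all positive (median 0.83), with a summed signal of 725 with cholic acid and 824 with vehicle, and with Myh11 and Des not detected. All 8 T cell markers were positive (median 0.97), with a summed signal of 14497 with cholic acid and 11272 with vehicle. Of the endothelial markers, Pecam1 was negative (-0.25) and Kdr positive (0.40). Myeloid markers were measured for 3 of 5, all positive (median 0.27), with Itgax at least 2-fold higher. Of the others in that list, Lyz2 was detected with cholic acid alone and the macrophage marker Adgre1 with vehicle alone. The part of these cells in the 3 Hox signals was not tested. In bulk RNA fewer cells of a type and less RNA per cell cannot be told apart.

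Between the Hox genes lay probes for other transcripts, many of them non-coding, and some of these were brighter than background where the Hox genes around them were not. In mm9 the Hox probes span 103.6 kb on chromosome 6 (Hoxa), 170.7 kb on chromosome 11 (Hoxb), 108.2 kb on chromosome 15 (Hoxc) and 93.8 kb on chromosome 2 (Hoxd). Within these spans and 5000 bases on either side, 39 other probes were placed by the files, of which 11 were detected with cholic acid, 10 with vehicle and 9 in both cases (23.1%). Over the arrays 40.6% of all probes and 21.4% of probes for long intergenic non-coding regions were detected on both. The looser flag was set on both arrays for 16 of the 39 and for 58.3% of all probes. Among named genes up to 500000 bases outside the clusters, 36 of 62 (58.1%) were detected on both arrays.

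The probe sequences below carried the signals of the non-coding transcripts and are given as deposited, in lower case throughout, with mm9 positions.
Hoxa11as, chr6:52199709-52199768, plus strand: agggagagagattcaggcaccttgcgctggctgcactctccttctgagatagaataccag
Hotair, chr15:102774847-102774906, minus strand: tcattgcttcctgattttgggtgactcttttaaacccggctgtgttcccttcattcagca
Haglr, chr2:74588186-74588245, minus strand: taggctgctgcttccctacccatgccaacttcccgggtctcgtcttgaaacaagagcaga
Hoxb13 to Hoxb9 region, chr11:96125675-96125734, plus strand: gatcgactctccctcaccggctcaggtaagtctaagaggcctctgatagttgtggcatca
Hoxb13 to Hoxb9 region, chr11:96114887-96114946, minus strand: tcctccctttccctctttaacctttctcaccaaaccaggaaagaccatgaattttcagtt
Hoxb13 to Hoxb9 region, chr11:96115056-96115115, plus strand: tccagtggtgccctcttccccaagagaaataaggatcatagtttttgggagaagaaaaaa
Hoxb5 to Hoxb4 region, chr11:96175777-96175836, plus strand: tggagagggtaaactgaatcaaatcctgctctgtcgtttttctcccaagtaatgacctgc

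Hoxa11as, the antisense transcript of Hoxa11 that RefSeq lists as Hoxa11os, had a signal of 21.3 ± 4.03 on the cholic acid array and 19.2 ± 4.14 on the vehicle array, while 0 of the 10 spots of the Hoxa11 probe on the opposite strand were flagged on either array. Haglr, named here through the RIKEN clone given in the files, was read between Hoxd3 and Hoxd1 on the strand opposite to the Hoxd genes and had 81.6 ± 9.02 with cholic acid and 98.3 ± 10.6 with vehicle. Hotair (HOTAIR in the files), a non-coding RNA of the Hoxc cluster studied for its links to Polycomb, had 49.3 ± 5.90 with cholic acid and 53.8 ± 6.41 with vehicle at the probe shown. The other 4 Hotair probes were not detected on either array, so 1 of 5 probes carries that signal. After scaling the differences of these probes were 0.67 for Hoxa11as, 0.25 for Haglr and 0.39 for Hotair, all under 2-fold. Gm4200, a clone between Hoxc10 and Hoxc9, had 27.3 ± 4.11 with cholic acid and 35.2 ± 5.04 with vehicle.

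In the gap between Hoxb13 and Hoxb9, probes for a long intergenic region gave signals on both strands. The probe at chr11:96125675-96125734 had 242 ± 24.4 with cholic acid and 329 ± 33.0 with vehicle, but the other 2 probes for that region, and the probe for the non-coding gene Gm53 at the position of 1 of them, were not detected. The minus-strand probe shown had 64.6 ± 6.86 with cholic acid and 110 ± 11.6 with vehicle, and the plus-strand probe 60.6 ± 6.70 with cholic acid and 68.5 ± 7.51 with vehicle. Of the 8 probes for the region these last belong to, 2 were detected on both arrays, 1 with cholic acid alone and 1 with vehicle alone. In another region of the cluster, between Hoxb5 and Hoxb4, the probe at chr11:96174257-96174316 had 15.9 ± 3.47 with cholic acid and 22.6 ± 4.03 with vehicle. Apart from these regions, a probe to which the files give no gene, at chr11:96110121-96110180, had 4420 ± 442 with cholic acid and 6170 ± 617 with vehicle. Which transcript it reads was not tested.

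The probe shown between Hoxb5 and Hoxb4 had the largest bound of the probes in the clusters detected on 1 array alone. It had 41.8 ± 5.49 on the cholic acid array and was not detected on the vehicle array, at 4.73 ± 3.83, which makes it at least 4.10-fold higher with cholic acid. Its 2 fellow probes for the same region were not detected on either array, at 3.40 and 8.55 with cholic acid and 4.55 and 3.48 with vehicle. A further probe, in the Hoxb13 to Hoxb9 gap, was detected with cholic acid alone, at 22.2 ± 3.62 with cholic acid and 14.4 ± 3.37 with vehicle.

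**Figure D3:**
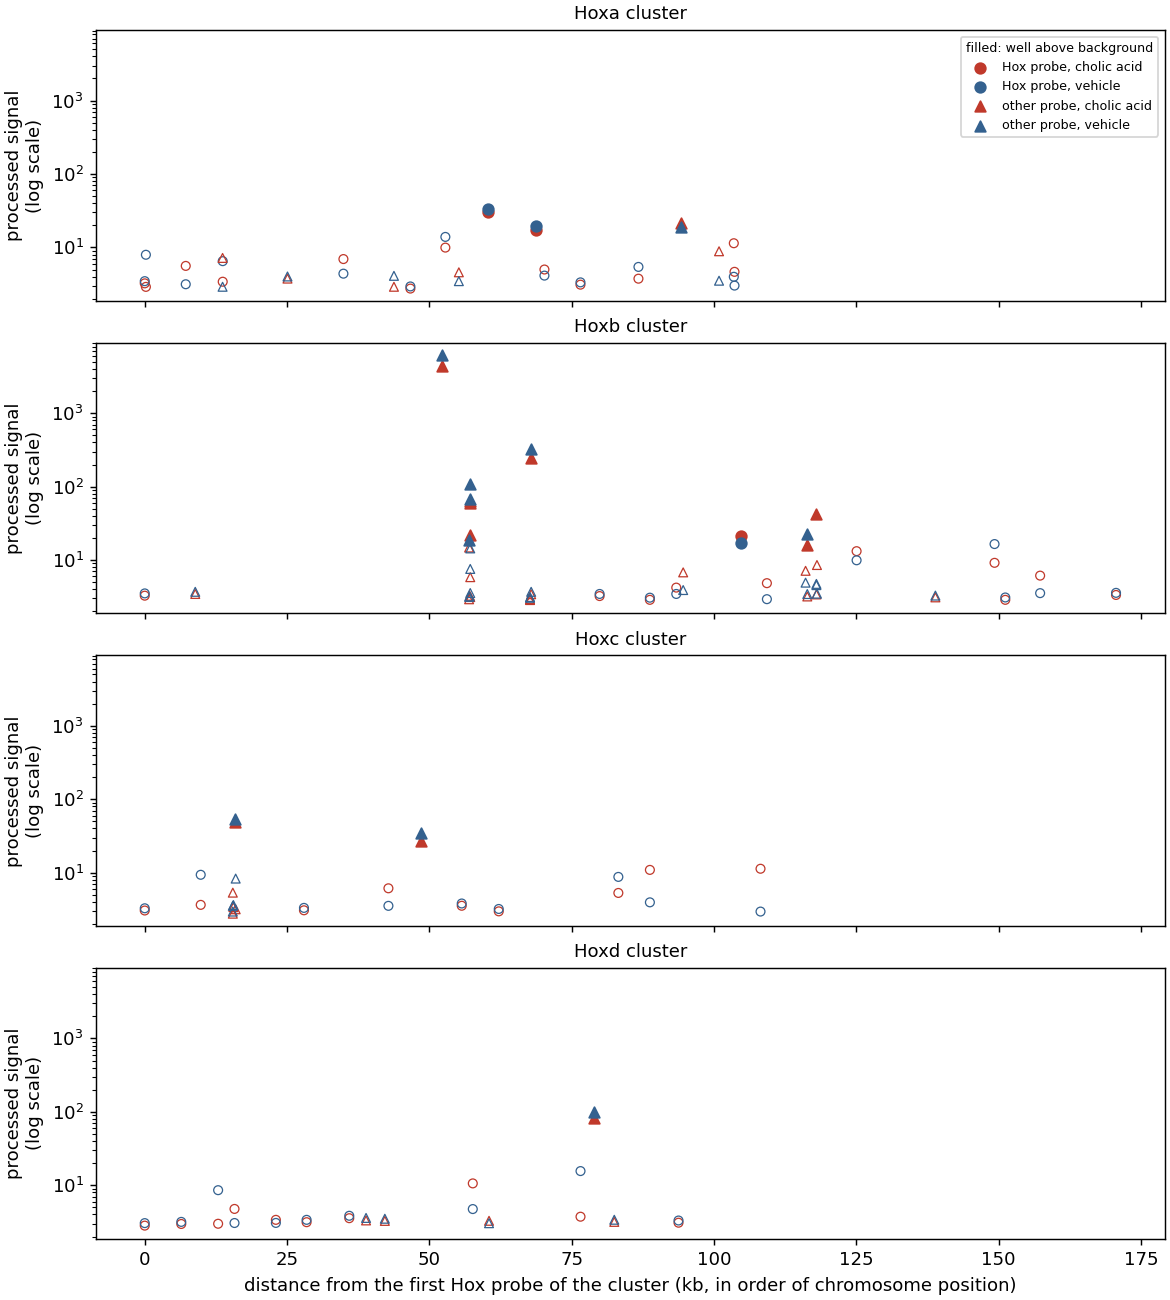
Processed signal (log axis) of Hox probes (circles) and other probes (triangles) on the cholic acid array (red) and the vehicle array (blue) against distance in kb from the first Hox probe of each cluster. Filled symbols are detected; they are 3 Hox probes and, on the cholic acid array, 11 other probes, 7 of which lie in the Hoxb cluster.

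Evx2, a homeobox gene beyond Hoxd13, read differently at its 2 probes. It had 193 ± 19.7 with cholic acid and 201 ± 20.5 with vehicle at a probe with 83.33% G and C, whereas its other probe, with 60.0%, was not detected, at 3.42 with cholic acid and 3.69 with vehicle. The Hox probes themselves had 30% to 55.0% G and C, with a median of 39.2%, against 43.3% for all probes. The 2 flanking genes measured on chromosome 6 were Skap2 (-0.20) and Hibadh (0.08). Mtx2, 105.5 kb from the Hoxd cluster, had -0.17. Skap1, an adaptor of T cells 125.7 kb from the Hoxb cluster, had a log2 difference of 1.104.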

How the data were processed

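Per the labels' protocols, RNA was amplified as cRNA and labelled with Cy3. Per the file headers, spots were read with Feature Extraction 10.7.1.1 on an mm9 design; version 9.5.1.1 is in the submitters' processing notes. The deposited processed signal is an intensity, background-subtracted and detrended within the array. The deposited p-value of each spot against its background was not used. Control spots and outlier spots (119 with cholic acid, 124 with vehicle) were left out, log2 signals were averaged per probe, and a probe with several spots counted as detected if at least 50% of them were flagged well above background. Each array's 75th percentile (741 with cholic acid, 1060 with vehicle), taken from the 22613 probes detected on both, was subtracted. Genes were named by accession, symbol or synonym in a RefSeq table (GRCm38.p6), Hox genes by the files. Probes detected on both arrays were averaged to give a gene's value. With 1 array per treatment no test was made, and the number of arrays limits the precision. The summary was tested on simulated data, with changes above 2-fold and noise below the spread seen in genes as dim as the Hox genes. That simulation does not show how well smaller differences in dim genes are recovered. The Hox rule, the lists and the rule for naming genes were made with earlier results of these data known. The naming rule took detected Hox genes by value and other Hox genes by count, and detected cluster probes. From each list it took members at least 2-fold apart, or otherwise the 4 most different. Not all genes that it picks are named, such as 4 T cell markers at least 2-fold higher. Other genes named were chosen after their values were seen. These include Cdx2, Gata4, Cubn, Osr2, Foxf1, Col1a1, Col3a1, Pecam1, Kdr, Adgre1, Evx2 and the flanking genes. Values of a few members are not reported here. Alternatives, run in R 4.3.3 with limma 3.58.1 and Python 3.11.15, covered scaling, normexp with an offset of 50, dim-probe filters and the authors' deposited intensity table, whose normalization is not stated.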

Additional observations from a re-analysis of the deposited data

How the results depend on the processing

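The counts rest on the flag. With the positive and significant flag, 20 Hox genes passed on the cholic acid array, 17 on the vehicle array and 13 on both, and 16 other cluster probes passed on both; 12 Hox genes were then measured at the same probe, 4 of them at least 2-fold higher (10.4% of all genes). Against the 95th percentile of negative controls, a limit added after the data were seen, 20 passed with cholic acid, 16 with vehicle and 13 on both. When all probes of a gene had to pass, 2 remained on each array, since Hoxa9 has 1 of 2. With no filter, 9 of 39 were at least 2-fold higher and 1 lower (12.3% and 2.63% of all genes). With a 1.5-fold limit 1 gene, Hoxb6, was higher (17.8% of all genes).

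The median of the 3 Hox genes, 0.38, ran from 0.00 (authors' values) to 0.62 (the looser flag, 12 genes) and was -0.13 without scaling, an alternative chosen after the data were seen. Relative to the median of all genes it was positive in each setting, from 0.02 (no filter) to 0.53. All genes are not a comparison at like signal: in the main setting, genes as dim as these 3 had medians of 0.36 to 0.38. The main setting puts 76.19% of 2-fold calls over all genes on the higher side, against 44.27% with the percentile over all probes, 58.46% with centring on the median, 51.43% with quantile normalization, 57.18% with loess, 51.47% in the authors' values and 12.97% without scaling. Without scaling the medians of the cofactors (-0.24), Polycomb (-0.45) and trithorax genes (-0.59) were also negative; the trithorax median was -0.31 with the percentile over all probes, -0.21 with centring on the median, -0.16 with quantile normalization, -0.13 with loess and with the looser flag, -0.041 with normexp and -0.165 in the authors' values. The cause was not tested beyond the scaling itself. No paired analysis was possible because each treatment has 1 array. Signal over background limits every Hox value here: 36 of 39 genes were too dim to compare.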
